A study of Mus musculus with 4 samples.

Results

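The Cyp3a family of mouse cytochrome P450 genes was followed in liver RNA on 4 arrays, each of a male liver sample. The members were Cyp3a11, Cyp3a13, Cyp3a16, Cyp3a25, Cyp3a41a, Cyp3a41b, Cyp3a44 and Cyp3a59, taken as the array probes whose transcript accession mapped to one of these 8 genes. Of the 8 genes, 7 had a probe and together they had 10 probes, out of 20886 named genes and 39429 probes on the array. No probe mapped to Cyp3a41a. The scanner marked 6 of the genes well above background on all 4 arrays, and Cyp3a44 on none.

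The 4 samples crossed genotype with diet. They were 1 catalase knockout liver on the high-fat diet, 1 catalase knockout liver on the normal diet, 1 wild-type liver on the high-fat diet and 1 wild-type liver on the normal diet. Fat supplied 60.3% of the calories in the high-fat diet and 18% in the normal diet. Both were fed for 11 weeks, starting at 29 weeks of age and ending at 40 weeks. The labels give no strain and no description of the knockout allele, and they do not say whether a sample was 1 animal or a pool. With 1 array a group, no value below has a replicate, and a difference between groups and one between animals cannot be told apart.

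Cyp3a enzymes are haem proteins of the endoplasmic reticulum that oxidise many drugs, steroids and bile acids, using electrons passed on by cytochrome P450 reductase. In liver their genes are best known as targets of the nuclear receptors PXR and CAR, which pair with RXR and bind repeats of a short half-site. Cyp3a11 is the main adult form of mouse liver and the usual counterpart of human CYP3A4, Cyp3a16 is known as a fetal and neonatal form, and Cyp3a41 and Cyp3a44 are known as forms that predominate in females. Catalase breaks down hydrogen peroxide, mostly in peroxisomes.

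Signals are given as the scanner's background-subtracted brightness and, for comparisons, as scaled log2 signal, which is 0 at the 75th percentile of the array. Between 23760 and 25184 of the 39429 probes were well above background, the 75th percentile lay between 1002.5 and 1152.0 units, and no spot was saturated. The 75th percentile was 1152.0 in the knockout on high-fat diet and 1002.5 on normal diet, and 1019.1 and 1005.6 in wild type on the same diets. Units are not scaled for this, so log2 differences and folds are taken from the scaled log2 signal. A gene was said to rise or fall when its brightest probe differed by 2-fold or more between 2 arrays. The scanner error of a typical log2 difference was 0.20 and covers spot measurement only. Levels of different probes are not comparable, so each is read across arrays. The catalase gene, Cat, served as a check of the labels. Its brightest probe had scaled log2 signals of 0.95 and 1.13 in the knockout on high-fat and on normal diet, against 4.75 and 4.89 in wild type on high-fat and on normal diet. It was 14.01-fold lower in the knockout on high-fat diet and 13.53-fold lower on normal diet. All 14 hepatocyte markers with a probe, among them Alb, Ttr and Apoa1, were well above background on all 4 arrays.

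High-fat feeding went with lower signals of Cyp3a11, Cyp3a16 and Cyp3a41b in both genotypes. Each of the 3 genes was about as far below its normal-diet level in the knockout as in wild type. Cyp3a59 fell in the knockout and missed the threshold in wild type, and Cyp3a25 and Cyp3a13 did not reach 2-fold in either genotype. Thus 4 of the 6 measured genes fell in the knockout, where 1.64% of 14905 genes were lower by this rule and 4.22% were higher. In wild type 3 of the 6 fell, where 2.31% of 14636 genes were lower and 1.78% were higher. Both counts include Cyp3a11, Cyp3a16 and Cyp3a41b, whose probes had much the same profile over the 4 arrays. As described below, these 3 falls cannot be counted as 3 independent measurements. The 2 diet comparisons share no array. In bulk liver, fewer cells of a type and less RNA per cell cannot be told apart.

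Cyp3a11 was read by 2 probes. Its first, brighter probe gave 67314 units in the knockout on high-fat diet and 170613 on normal diet, and 46123 in wild type on high-fat diet and 146164 on normal diet. Both high-fat arrays were below both normal-diet arrays, and within each diet the knockout was the higher. The log2 difference was -1.54 ± 0.20 in the knockout, a 2.91-fold lower level, and -1.68 ± 0.20 in wild type, 3.21-fold lower (± is the scanner error here and below). The second probe gave 17503 and 56990 units in the knockout on high-fat and normal diet, against 11836 and 43248 in wild type on the same diets. It had the same order of the 4 arrays, with log2 differences of -1.90 in the knockout and -1.89 in wild type. In both genotypes the brighter probe showed the smaller fall.

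Cyp3a16 gave 11615 units in the knockout on high-fat diet and 38959 on normal diet, and 7883 in wild type on high-fat diet and 29139 on normal diet. The order of the 4 arrays was that of Cyp3a11. With high-fat feeding it was 3.85-fold lower in the knockout (log2 difference -1.95 ± 0.20) and 3.75-fold lower in wild type (-1.91 ± 0.20). The Cyp3a41b probe gave 1868 units in the knockout on high-fat diet and 6354 on normal diet, against 1217 and 4677 in wild type on high-fat and normal diet. Again neither high-fat array reached a normal-diet array. The Cyp3a41b signal was 3.91-fold lower with high-fat feeding in the knockout (log2 difference -1.97 ± 0.20) and 3.89-fold lower in wild type (-1.96 ± 0.20).

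Cyp3a59 was also read by 2 probes. The first gave 19308 units in the knockout on high-fat diet and 38076 on normal diet, and 15340 in wild type on high-fat diet and 27798 on normal diet. Its log2 difference was -1.18 ± 0.20 in the knockout, past the 2-fold threshold, and -0.88 ± 0.20 in wild type, short of it. The second gave 1428 and 2312 units in the knockout on high-fat and normal diet, and 1063 and 1047 units in wild type on high-fat and normal diet. On this probe the knockout on normal diet was the highest array and the wild-type arrays were level, with diet differences of -0.90 in the knockout and 0.00 in wild type. The call for Cyp3a59 in the knockout was lost with quantile normalization, which left 3 genes lower, and with its second probe.

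Cyp3a25 gave 38890 units in the knockout on high-fat diet and 49214 on normal diet, against 31348 and 35438 in wild type on high-fat and normal diet. Its diet difference was -0.54 ± 0.20 on the log2 scale in the knockout and -0.20 ± 0.20 in wild type, so in wild type the arrays differed by no more than the scanner error. Cyp3a13, the member whose gene lies apart from the main cluster, gave 13816 and 13137 units in the knockout on high-fat and normal diet, and 13511 and 11283 units in wild type on high-fat and normal diet. In unscaled units the knockout was thus higher on high-fat diet. After scaling, the log2 differences of its first probe were -0.13 ± 0.20 in the knockout and 0.24 ± 0.20 in wild type. Those of its second probe were -0.02 in the knockout and 0.37 in wild type. Neither probe separated the diets in the knockout by more than the scanner error, and the sign of the first probe there changed with the scaling, being -0.23 with median scaling and 0.04 with quantile normalization. Cyp3a44 gave 5 and 17 units in the knockout on high-fat and normal diet, and 5 and 10 units in wild type on high-fat and normal diet, not well above background on any array, so it has no fold.

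**Figure D1:**
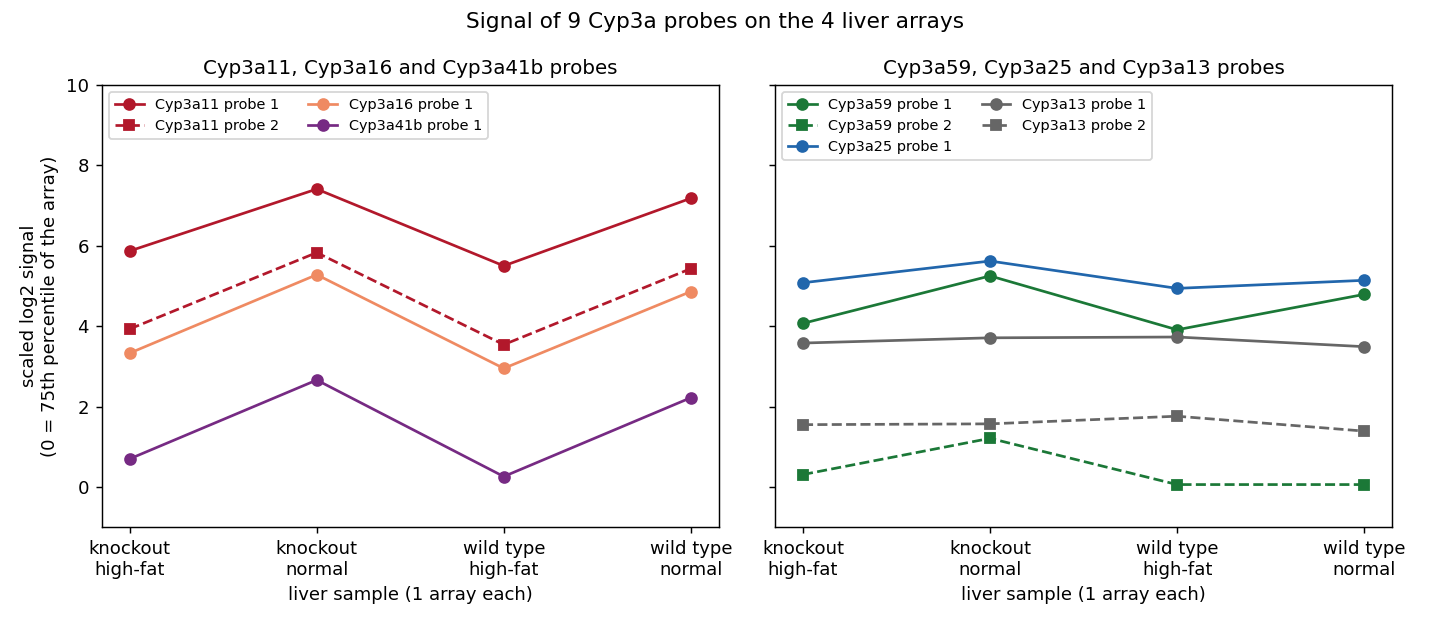
Scaled log2 signal (vertical axis, 0 at the 75th percentile of the array) of the 9 Cyp3a probes that were well above background on the 4 liver arrays (horizontal axis, 1 array each). Each line joins the values of 1 probe and is to be read along the line, not between lines. The Cyp3a11, Cyp3a16 and Cyp3a41b probes on the left are low on both high-fat arrays, and the Cyp3a13 probes on the right are nearly flat.

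Among all genes well above background on both arrays, the diet differences of Cyp3a11, Cyp3a16, Cyp3a41b and Cyp3a59 stood near the low end, and those of Cyp3a25 in wild type and Cyp3a13 did not. In the knockout Cyp3a41b was number 16 from the lowest of 13879 genes, Cyp3a16 number 18, Cyp3a11 number 45 and Cyp3a59 number 98. In wild type Cyp3a41b was number 23 of 13735, Cyp3a16 number 25, Cyp3a11 number 44 and Cyp3a59 number 264. Cyp3a25 was number 809 in the knockout and number 3218 in wild type, and Cyp3a13 number 5603 in the knockout and number 11656 in wild type. The median of all these genes was -0.07 in the knockout and -0.02 in wild type. By the 2-fold rule 55 genes fell in both genotypes, while 13551 genes were well above background on all 4 arrays. Of the 55, 3 were Cyp3a11, Cyp3a16 and Cyp3a41b, which cannot be counted as 3 independent measurements.

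**Figure D2:**
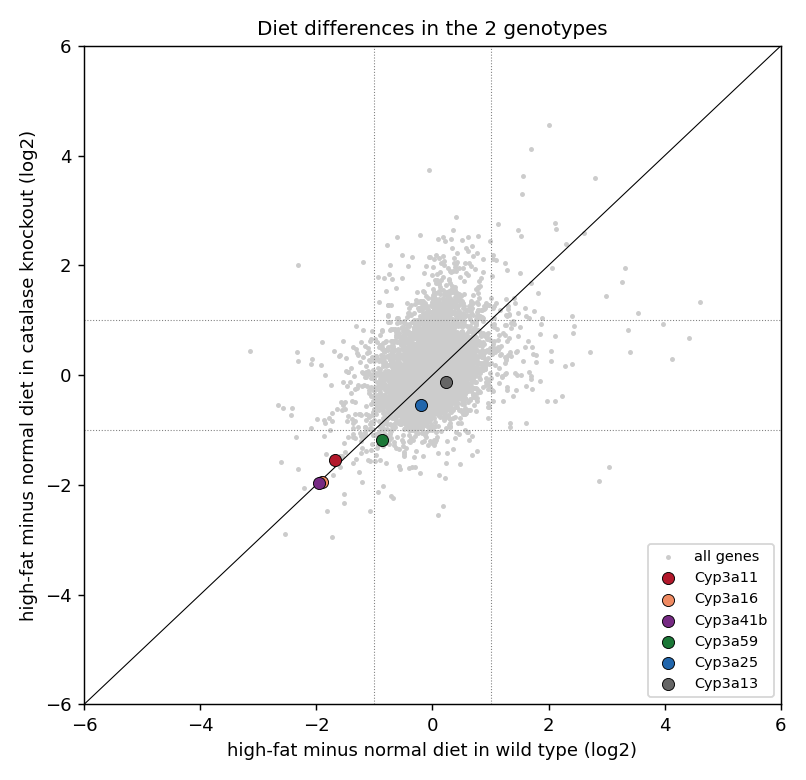
Log2 difference of high-fat minus normal diet in wild type (horizontal axis) and in the catalase knockout (vertical axis) for every gene well above background on all 4 arrays (grey) and for the 6 measured Cyp3a genes (coloured). The solid line marks equal differences and the dotted lines 2-fold. Cyp3a11, Cyp3a16 and Cyp3a41b lie near the line of equality between -1.5 and -2, while Cyp3a25 and Cyp3a13 lie within the dotted lines.

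The additive model of genotype and diet, fitted with limma over 14346 genes, is the only test that these 4 arrays allow, and it treats the interaction of diet and genotype as error. Its diet effect was -1.96 for Cyp3a41b, with a 95% confidence interval of -2.32 to -1.61 and a limma adjusted p of 0.303. Cyp3a16 had -1.93 (-2.28 to -1.57, limma adjusted p = 0.303), Cyp3a11 -1.61 (-1.99 to -1.24, adjusted p = 0.391) and Cyp3a59 -1.03 (-1.47 to -0.59, adjusted p = 0.425). Cyp3a25 had -0.37 and Cyp3a13 0.06, with limma adjusted p of 0.53 and 0.895. After Benjamini-Hochberg adjustment 0 of the 6 genes and 0.0% of the 14346 genes passed 0.05 for diet, while 1425 genes had an unadjusted p under 0.05. The falls above are therefore sizes on single arrays that did not pass the adjusted test. With median scaling limma placed 4 Cyp3a genes past the threshold, in a fit that gave every gene the same variance.

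Knockout and wild type differed by less than 2-fold in every measured Cyp3a gene when read by its brightest probe. The count of calls was 0 on high-fat diet, where 2.51% of 14844 genes were higher and 1.59% lower. It was also 0 on normal diet, where 1.4% of 14702 genes were higher and 2.5% lower. Each of these comparisons shares an array with each diet comparison. On high-fat diet the log2 difference of knockout minus wild type was 0.37 for Cyp3a11, 0.38 for Cyp3a16, 0.44 for Cyp3a41b, 0.16 for Cyp3a59, 0.13 for Cyp3a25 and -0.14 for Cyp3a13. On normal diet all 6 were positive, at 0.23 for Cyp3a11, 0.42 for Cyp3a16, 0.45 for Cyp3a41b, 0.46 for Cyp3a59, 0.48 for Cyp3a25 and 0.22 for Cyp3a13. The genotype effects in the additive limma model ran from 0.04 to 0.44 with adjusted p from 0.649 to 0.961, 0.0% of all genes passed, and 1041 genes had an unadjusted p under 0.05. The second Cyp3a59 probe was the exception, at 1.15 ± 0.20 or 2.21-fold higher in the knockout on normal diet, while the first probe of that gene gave 0.46.

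**Figure D3:**
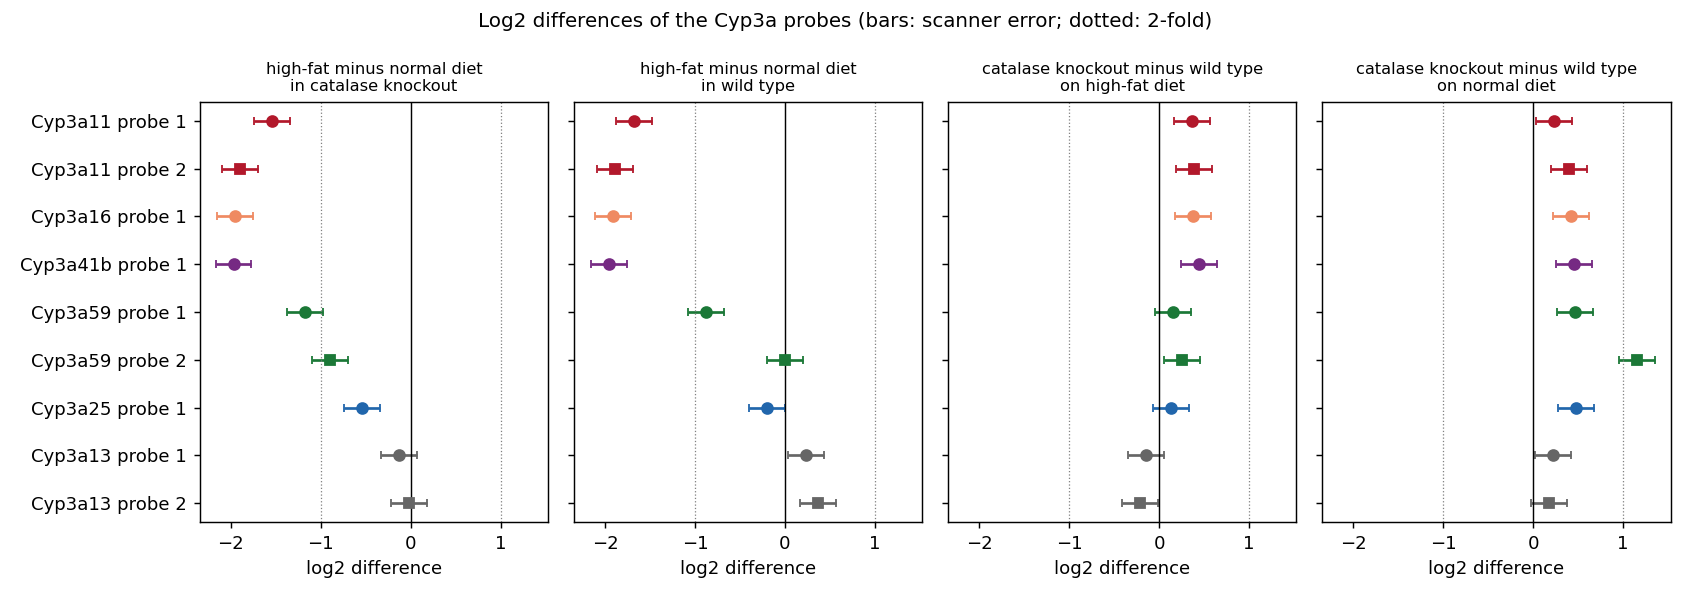
Log2 differences (horizontal axis) of the 9 measured Cyp3a probes (rows) in the 4 comparisons of 2 arrays, from left to right the diet comparison in the knockout and in wild type and the genotype comparison on high-fat and on normal diet. Points are values of 1 pair of arrays, bars are the scanner error and dotted lines mark 2-fold. The Cyp3a11, Cyp3a16 and Cyp3a41b probes are beyond the 2-fold line in both diet panels and within it in both genotype panels, where the second Cyp3a59 probe on normal diet is beyond it.

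The diet difference in the knockout minus that in wild type was 0.14 ± 0.29 for the first Cyp3a11 probe, -0.02 for the second, -0.04 for Cyp3a16 and -0.01 for Cyp3a41b. For these 4 probes the diet differences of the genotypes were thus within the scanner error of each other. The value was -0.30 for the first Cyp3a59 probe, -0.34 for Cyp3a25 and -0.37 and -0.39 for the Cyp3a13 probes, each just beyond that error, and -0.90 for the second Cyp3a59 probe. Over the scalings and background corrections the brightest probes ranged from -0.50 to -0.22 for Cyp3a59, from -0.54 to -0.26 for Cyp3a25 and from -0.57 to -0.27 for Cyp3a13, so each fell within the error under some of them. No test of these values is possible with 1 array a group.

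Several probes of different members had nearly the same profile over the 4 arrays. With each probe centred on its mean over the 4 arrays, the root mean square distance was 0.02 between the second Cyp3a11 probe and the Cyp3a16 probe. It was 0.03 between the Cyp3a16 and Cyp3a41b probes and 0.04 between the second Cyp3a11 and the Cyp3a41b probe. These distances were smaller than the 0.15 between the 2 Cyp3a11 probes. The 2 Cyp3a13 probes were 0.07 apart and the 2 Cyp3a59 probes 0.38 apart. The first Cyp3a11 probe was 0.63 from Cyp3a25 and 0.85 from the first Cyp3a13 probe. Cross-hybridisation between these near-identical transcripts was not tested, since no probe sequences were used here, and a Cyp3a41b probe may also read Cyp3a41a. The 3 falls of Cyp3a11, Cyp3a16 and Cyp3a41b therefore cannot be counted as 3 independent measurements. In the male wild-type liver on normal diet the Cyp3a16 probe gave 29139 units and the Cyp3a41b probe 4677. These forms were introduced above as fetal and neonatal and as female-predominant, and whether their probes read Cyp3a11 was not tested.

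Cyp3a57, a further gene of the cluster that is outside the 8 members and was named after its values were seen, gave 23758 units in the knockout on high-fat diet and 30991 on normal diet, against 20040 and 22963 in wild type on high-fat and normal diet. Its diet differences were -0.58 in the knockout and -0.22 in wild type, and its profile was 0.03 from that of Cyp3a25. In the RefSeq gene order of chromosome 5, Cyp3a57, Cyp3a16, Cyp3a41b, Cyp3a41a, Cyp3a44, Cyp3a11, Cyp3a25 and Cyp3a59 follow one another with pseudogenes between them, and Cyp3a13 stands apart. Members with 2-fold falls in both genotypes and members without them thus lie side by side, since Cyp3a11 and Cyp3a25 are neighbours.

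The promoters of 3 members whose probes fell in both genotypes and of 2 whose probes did not are shown to compare them letter by letter. The 3 falls are not independent measurements, as stated above, so the members are grouped by probe and not by transcript. Each is the 250 bases before the RefSeq start on the minus strand of GRCm38.p6, printed 5′ to 3′, with capitals for the nuclear receptor half-site AGGTCA and its variant form AGTTCA, on either strand, and for the forkhead (FOXA) motif TGTTTAC. They lie at chr5:145879855-145880104 for Cyp3a11, chr5:145469724-145469973 for Cyp3a16, chr5:145584731-145584980 for Cyp3a41b, chr5:146009619-146009868 for Cyp3a25 and chr5:137921620-137921869 for Cyp3a13.
Cyp3a11: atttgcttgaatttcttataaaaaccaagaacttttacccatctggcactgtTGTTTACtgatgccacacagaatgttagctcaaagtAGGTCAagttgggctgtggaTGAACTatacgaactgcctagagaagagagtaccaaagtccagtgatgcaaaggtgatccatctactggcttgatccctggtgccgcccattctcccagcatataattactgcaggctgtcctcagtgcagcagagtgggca
Cyp3a16: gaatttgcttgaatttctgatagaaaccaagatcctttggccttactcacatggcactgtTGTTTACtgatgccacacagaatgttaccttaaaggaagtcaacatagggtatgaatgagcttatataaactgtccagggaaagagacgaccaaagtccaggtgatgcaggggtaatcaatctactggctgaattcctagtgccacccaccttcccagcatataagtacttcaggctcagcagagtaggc
Cyp3a41b: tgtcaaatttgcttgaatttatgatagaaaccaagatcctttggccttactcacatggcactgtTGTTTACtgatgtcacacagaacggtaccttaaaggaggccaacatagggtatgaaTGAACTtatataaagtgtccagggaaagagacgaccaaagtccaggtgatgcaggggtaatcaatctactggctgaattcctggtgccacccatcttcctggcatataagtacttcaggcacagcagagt
Cyp3a25: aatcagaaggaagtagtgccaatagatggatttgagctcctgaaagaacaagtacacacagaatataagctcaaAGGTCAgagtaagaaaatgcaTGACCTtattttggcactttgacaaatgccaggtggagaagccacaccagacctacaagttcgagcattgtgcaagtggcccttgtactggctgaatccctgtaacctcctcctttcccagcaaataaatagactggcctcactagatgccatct
Cyp3a13: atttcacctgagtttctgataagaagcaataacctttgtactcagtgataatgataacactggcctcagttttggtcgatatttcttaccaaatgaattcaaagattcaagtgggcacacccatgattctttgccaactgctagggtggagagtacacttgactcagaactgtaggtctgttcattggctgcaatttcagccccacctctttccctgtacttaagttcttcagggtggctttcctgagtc

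TGTTTAC occurred at -198 to -192 in Cyp3a11, counted from the start, at -190 to -184 in Cyp3a16 and at -186 to -180 in Cyp3a41b, Cyp3a41a and Cyp3a44. It was not found in these windows of Cyp3a25, Cyp3a59, Cyp3a57 or Cyp3a13, and 3.17% of 32851 promoter windows of the same length held it on either strand. AGGTCA, held by 14.0% of the windows, occurred once in Cyp3a11 and Cyp3a44 and at 2 places each in Cyp3a25, Cyp3a59 and Cyp3a57. AGTTCA, held by 11.8%, occurred in Cyp3a11, Cyp3a41a and Cyp3a41b. The paired forms DR3 and DR1 of the half-site and the STAT motif TTCNNNGAA, held by 0.00609%, 0.0335% and 7.02% of the windows, were not found in the family. An ER6 pair of both half-sites was held by no window. The motifs were searched on both strands, the half-sites are part of the paired forms, and a match here is a description of letters only.

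Over aligned bases the promoter windows of Cyp3a41a and Cyp3a41b were 99.6% identical, those of Cyp3a16 and Cyp3a44 95.9%, and those of Cyp3a16 and Cyp3a41b 94.3%. Cyp3a25 and Cyp3a59 were 95.6% identical and Cyp3a25 and Cyp3a57 90.3%. Cyp3a11 shared 83.7% with Cyp3a16, 82.1% with Cyp3a41b, 79.4% with Cyp3a25 and 72.0% with Cyp3a13. The Cyp3a25 and Cyp3a59 windows were thus alike in sequence. The first Cyp3a59 probe had diet differences of -1.18 in the knockout and -0.88 in wild type, and the Cyp3a25 probe -0.54 and -0.20. The second Cyp3a59 probe had -0.90 in the knockout and 0.00 in wild type. Its profile was 0.24 from that of Cyp3a25, against 0.38 from that of the first Cyp3a59 probe.

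The receptors and transcription factors known to act on Cyp3a genes did not move by 2-fold with diet. Of 21 measured genes 0 rose and 0 fell in either genotype, with medians of -0.19 in the knockout and 0.20 in wild type. The shares over all genes were 4.22% higher and 1.64% lower in the knockout, and 1.78% and 2.31% in wild type. A count of 0 among 21 genes is near these shares. Nr1i2, which encodes PXR, had scaled log2 signals of 1.66 in the knockout on high-fat diet and 1.85 on normal diet, and 2.01 in wild type on high-fat diet and 1.37 on normal diet. Its diet difference was -0.19 ± 0.20 in the knockout and 0.63 ± 0.20 in wild type, where the Cyp3a11 signal went the other way. Nr1i3, which encodes CAR, had diet differences of -0.13 in the knockout and 0.56 in wild type. Hnf4a, a hepatocyte nuclear receptor, had -0.35 in the knockout and -0.02 in wild type. Between genotypes 1 gene of the list passed 2-fold. It was Nr0b2, the repressor SHP, which fell by 1.29 on the log2 scale in the knockout on normal diet. In that comparison 2.5% of all genes were lower, and 1 fall among 21 genes is near that share. Nr1i2, Nr1i3 and Hnf4a are named for their role and did not pass the size rule.

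The genes that Cyp3a enzymes need to work also stayed within 2-fold. Of 6 genes of electron transfer 0 rose or fell with diet, with medians of -0.32 in the knockout and 0.04 in wild type. Por, cytochrome P450 reductase, named for its role, had diet differences of 0.05 in the knockout and 0.52 in wild type. Of 12 genes of haem synthesis and breakdown 0 rose or fell, with medians of -0.14 in the knockout and -0.03 in wild type, and Alas1, the first enzyme of haem synthesis, had -0.08 in the knockout and 0.35 in wild type. The 11 coregulators of PXR and CAR likewise gave 0 calls, with medians of -0.08 in the knockout and -0.12 in wild type. For lists this short, 0 calls is also near the shares over all genes given above. The sign of the haem median in wild type and of the coregulator median in the knockout changed with the scaling, from -0.05 to 0.07 and from -0.18 to 0.01.

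The other known targets of PXR and CAR did not move as one group. Of 28 such genes 24 had a probe and were measured. For comparison, the array-wide diet shares by the 2-fold rule were 4.22% higher and 1.64% lower in the knockout. The wild-type shares were 1.78% higher and 2.31% lower. In the knockout 0 of the 24 rose and 7 fell with high-fat feeding, and the median was -0.20. The count of falls was 4 with quantile normalization. There the median was -0.01. The 4 largest falls were those of Cyp2c55, a P450 that oxidises fatty acids, at -2.49, Ces2a, a carboxylesterase, at -1.76, Cyp2c54 at -1.30 and Cyp2c50 at -1.22. In wild type 3 rose and 2 fell, with a median of -0.14. Cyp2c55 had -1.81 and Ces2a -1.27 there. Cyp2b10, a P450 that is the usual marker of CAR activity, rose by 4.42, Abcb1a, an efflux transporter, by 1.60, and Sult1e1, the estrogen sulfotransferase, by 1.17, while normexp background correction left 1 rise of these 3.

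Cyp2b10 and Cyp3a11 had opposite diet differences in wild type. Cyp2b10 had scaled log2 signals of 4.73 in the knockout on high-fat diet and 4.05 on normal diet, and 4.37 in wild type on high-fat diet and -0.04 on normal diet. It was low on the wild-type normal-diet array and high on the other 3, whereas Cyp3a11 was low on both high-fat arrays. Between genotypes on normal diet, Cyp2b10 rose by 4.09 in the knockout and Gsta2, a glutathione transferase, by 1.15, while Cyp2s1 fell by 1.14. On high-fat diet 0 of the 24 rose and 2 fell in the knockout: Slco1a4, an organic anion transporter, fell by 1.23 and Sult1e1 fell by 1.03. All genes together gave 2.51% higher and 1.59% lower in that comparison.

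Genes under growth hormone and sex-dependent control, to which several Cyp3a forms belong, moved in both directions. Among 22 genes with a probe, 3 rose and 4 fell with high-fat feeding in the knockout, and 3 rose and 4 fell in wild type. The shares over all genes were 4.22% higher and 1.64% lower in the knockout, and 1.78% and 2.31% in wild type. Other scalings gave 1 to 3 rises in the knockout. Cyp4a12a, a male-predominant P450, fell by 1.96 in the knockout and fell by 1.98 in wild type, and Hsd3b5, a male-predominant steroid enzyme, fell by 2.95 in the knockout and fell by 1.74 in wild type. Cyp2b13, a female-predominant P450, rose by 1.61 in the knockout. In wild type it was 78.1-fold higher, taken from its own signal on normal diet, which was not well above background. The log2 difference there was 6.29 with a scanner error of 0.40, so the fold is approximate. Hamp2, a hepcidin gene, fell by 1.92 in the knockout and rose by 2.86 in wild type. Moxd1 fell by 5.15 in wild type and was not well above background on either knockout array. Cyp2d9, Mup20 and Cyp2a4 of this list did not reach 2-fold. Their diet differences were -0.54, -0.29 and -0.53 in the knockout and -0.80, -0.10 and 0.31 in wild type.

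Among 16 genes of bile acid and steroid metabolism, 0 rose and 2 fell in each genotype, with medians of -0.59 in the knockout and -0.15 in wild type. The falls numbered 1 to 3 in the knockout and 0 to 2 in wild type over the scalings. For these lists and those below, 1.64% of all genes fell in the knockout and 2.31% in wild type. Cyp7b1, the oxysterol 7-alpha-hydroxylase, had -1.1 in the knockout and -1.01 in wild type, and Slco1a1, an organic anion transporter, had -2.49 in the knockout and -1.08 in wild type. Cyp1a2, a P450 of pericentral hepatocytes, where Cyp3a enzymes are also enriched, fell by 2.17 in the knockout and fell by 1.52 in wild type. In all, 2 of 14 pericentral genes fell in the knockout and 1 in wild type, with medians of -0.38 in the knockout and 0.13 in wild type. Of 13 periportal genes 3 fell in the knockout and 1 in wild type, with medians of -0.71 in the knockout and -0.30 in wild type. Over the scalings the falls in the knockout numbered 1 to 3 pericentral and 2 to 5 periportal genes, and no gene of either list rose.

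Inflammatory genes and macrophage markers moved with diet in the knockout. Over all genes 4.22% rose and 1.64% fell with diet in the knockout, and 1.78% and 2.31% in wild type. Of 19 measured acute phase and cytokine genes 7 rose in the knockout and 0 fell, with a median of 0.49. In wild type 1 rose and 1 fell among 20, with a median of 0.00. Lcn2, an acute phase lipocalin, rose by 4.57 in the knockout and by 2.00 in wild type, and Saa1, a serum amyloid protein, rose by 2.52 in the knockout. Between genotypes, 1.4% of all genes were higher and 2.5% lower in the knockout on normal diet, and 2.51% and 1.59% on high-fat diet. On normal diet 0 of the acute phase and cytokine genes were higher and 4 were lower in the knockout. Cxcl1 was lower by 2.77, Ccl2 by 2.22, Socs3 by 1.44 and Saa2 by 1.09. On high-fat diet 2, Lcn2 and Orm3, were higher in the knockout and 1, Socs3, was lower. The knockout normal-diet array, from which the rises are taken, was thus low for some of these genes. Of 14 macrophage and Kupffer cell markers with a probe, 10 rose in the knockout and 0 fell, and in wild type 0 rose and 0 fell. Their summed scaled signal was 89 in the knockout on high-fat diet and 34.3 on normal diet, against 48.8 and 41.9 in wild type on high-fat and normal diet. None of the 14 was below background on every array. With median scaling 1 macrophage marker rose in wild type.

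Most hepatocyte markers stayed within 2-fold. Of 14 measured 1 fell in the knockout, Cps1, a urea cycle enzyme, at -1.1, and 0 fell in wild type, with medians of -0.29 in the knockout and -0.07 in wild type. Over the scalings the falls in the knockout numbered 0 to 2, and the wild-type median changed sign, from -0.07 to 0.05. Their summed scaled signal was 3549 in the knockout on high-fat diet and 4363 on normal diet, and 4384 and 4612 in wild type on high-fat and normal diet. Most markers of the remaining cell types did not reach 2-fold. With high-fat feeding in the knockout, 4 of 10 genes of stellate cells and matrix rose and 0 fell, 1 of 10 endothelial genes rose, 1 of 7 cholangiocyte genes rose, 1 of 10 lymphocyte genes fell, and 3 of 7 neutrophil genes rose and 1 fell. In wild type 2 stellate genes and 1 endothelial gene rose, 1 cholangiocyte and 1 lymphocyte gene fell, and 0 neutrophil genes changed. Of 9 markers of tissue that could be carried over, from intestine, pancreas, fat and blood, 2 rose in the knockout and 3 in wild type. The shares over all genes were 4.22% higher and 1.64% lower in the knockout, and 1.78% and 2.31% in wild type. A list with 1 call is given as a count only. The part of these cells, of macrophages and of the inflammatory genes in the Cyp3a signals was not tested.

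**Figure D4:**
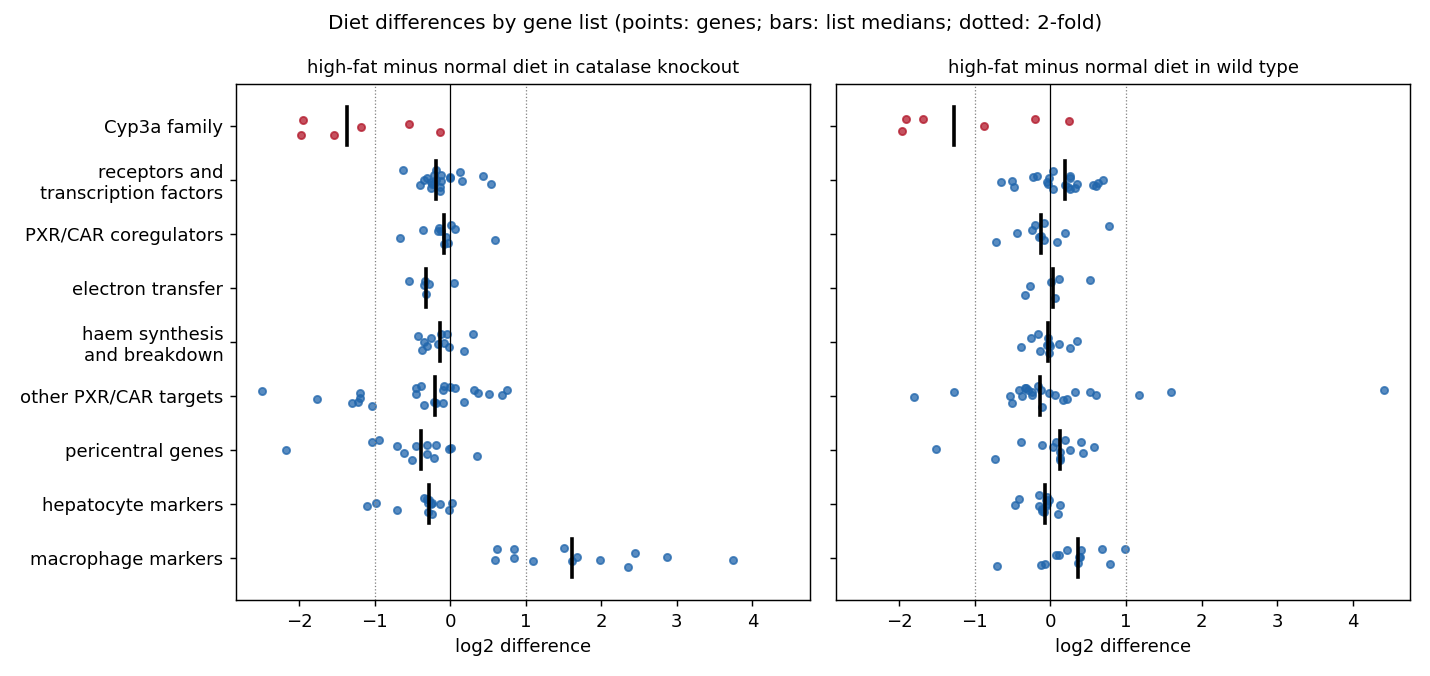
Log2 difference of high-fat minus normal diet (horizontal axis) in the knockout (left) and in wild type (right) for the measured genes of 9 lists. Points are genes well above background on both arrays, black bars are list medians and dotted lines mark 2-fold. The Cyp3a medians are -1.36 in the knockout and -1.28 in wild type, against -0.19 and 0.20 for the receptors and transcription factors, and the macrophage markers are shifted up in the knockout with a median of 1.61.

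The genes whose 4-array profile was most like each member were sought among 12937 genes outside the 8 members, with clone and locus names left out. For Cyp3a11 the nearest was Acss2, a cytosolic acetyl-CoA synthetase, at a root mean square distance of 0.167, with diet differences of -1.60 in the knockout and -1.37 in wild type. It was followed by Fdps, farnesyl diphosphate synthase, at 0.234, Gapdhs at 0.239, Gask1a at 0.247 and Prss8 at 0.257. Cyp3a16 had Acss2 at 0.285, Cyp2c55 at 0.295, Fdps at 0.381, Gapdhs at 0.385 and Gask1a at 0.39. Cyp3a41b had Cyp2c55 at 0.309, Acss2 at 0.314, Gapdhs at 0.403, Gask1a at 0.404 and Csad at 0.405. None of these genes came as near to Cyp3a16 or Cyp3a41b as those 2 probes came to each other, at 0.03. The 5 genes named for each were nearer to it than the first Cyp3a59 probe, at 0.46 from Cyp3a16 and 0.48 from Cyp3a41b. Cyp3a59 had Dleu2 at 0.109, Kantr at 0.122, Ier2 at 0.124, Ethe1 at 0.126 and Gapdhs at 0.133.

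For the flatter members many genes lay close. Cyp3a25 had Tceanc2 at 0.025, Atp6v1h at 0.028, Cyp3a57 and Zfp982 at 0.032 and Tbcel at 0.033, and Cyp3a13 had Timm8a1 at 0.004, Thoc3 and Cyhr1 at 0.008, Usp22 at 0.01 and Rxra at 0.012. A profile here is 4 values, 1 per array, so a small distance is a description of these arrays.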

How the data were processed

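Liver RNA of 4 samples, prepared with Trizol per the labels' protocols, was measured on 1-colour Agilent 44K arrays. The deposited scanner files hold spot intensity from Feature Extraction 11.5.1.1, per the file headers, as a background-subtracted processed signal with an error. The series' design text names GeneSpring GX 7.3 and does not describe a scaling. The authors' deposited value table holds uncentred linear intensity, with column medians of 89.16, 72.38, 75.87 and 79.87 in the knockout on high-fat and normal diet and wild type on high-fat and normal diet; direction does not apply to 1 colour.

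Control spots were left out. Flagged spots (98 to 186 an array) were left out where their probe also had an unflagged spot, and were kept otherwise. Spots of a probe were averaged as log2 signal, and the array's 75th percentile was subtracted. All 4 arrays were on 1 slide in 1 scan, so no batch could be fitted. Of 39429 probes 27508 were named through a RefSeq table of GRCm38.p6 by accession without version; this table gave names and gene order only. A gene was represented by its brightest probe. A gene changed when it differed by 2-fold, with the probe well above background on both arrays, or on 1 array only. In that case the dim array took the lowest signal that was well above background there, or the probe's own signal where that was higher. Array intensity precision is limited by 1 array a group, and p-values are given only for the additive limma model, with Benjamini-Hochberg adjustment over the 14346 genes that at least 2 arrays detected above background.

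The members and gene lists were chosen with earlier results of these data known, so no list is independent evidence. The genes named are Cat, all members, list members past 2-fold (at most 4 a list and comparison, with Moxd1 added) and the 5 nearest profiles. A few were named for their role or as list members that did not reach 2-fold, as stated. Alternatives were other scalings, normexp background correction, other probe choices, thresholds and filters. The mean signal was not among the columns used, so normexp used the median signal. Tools were limma 3.58.1, R 4.3.3, Python 3.11.15, numpy 2.4.6, pandas 2.3.3, Biopython 1.88 and matplotlib 3.10.9, and the scripts were tested on simulated data.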

Additional observations from a re-analysis of the deposited data

Results flagged for a closer look

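Cyp3a13 had scaled diet differences of opposite sign in the 2 genotypes on both of its probes. Both knockout values lay within their scanner error of 0.20, so their sign is not resolved. The diet difference in the knockout minus that in wild type was -0.37 for the first probe and -0.39 for the second, with a scanner error of 0.29. The first probe gave -0.13 in the knockout and 0.24 in wild type, and the second -0.02 in the knockout and 0.37 in wild type. The difference was not tested, since each group had 1 array, and the first probe's value in the knockout was positive, at 0.04, with quantile normalization.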

How the results depend on the processing

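Over the 4 comparisons of 2 arrays and 2 model terms, the counts of Cyp3a genes moved in these cases. With the second brightest probe, which only Cyp3a11, Cyp3a13 and Cyp3a59 have, 1 gene fell with diet in the knockout and 1 in wild type, both Cyp3a11, and 1, Cyp3a59, rose in the knockout on normal diet. At a 3-fold threshold 2 genes, Cyp3a16 and Cyp3a41b, fell in the knockout. Median scaling gave 4 limma calls for diet, where the fit gave an infinite prior and so the same variance to every gene; 377 genes were then called for diet and 219 for genotype. Quantile normalization left 3 falls in the knockout, without Cyp3a59, and dropping the background flag gave 5, with Cyp3a44; the cause of the quantile result was not tested. The other settings kept each count within 1.5 times. Of 255 single-gene values 244 moved by less than the scanner error, 11 moved by more and 0 reversed, where only values past the threshold could reverse. Over all genes normexp lowered the counts of higher and lower genes to 271 and 138 with diet in the knockout, against 629 and 245, and to 121 and 152 in wild type, against 261 and 338. It lowered them to 142 and 121 for genotype on high-fat diet, against 373 and 236, and to 102 and 143 on normal diet, against 206 and 368. Median scaling shifted the median of all genes by -0.11 for diet in the knockout and 0.14 for genotype on normal diet, and gave 510 and 323 for diet in the knockout, 304 and 280 in wild type and 264 and 285 for genotype on normal diet. No paired analysis was possible because each group has 1 array and leaving one out leaves no group. Signal over background limits only Cyp3a44.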
